A study of Homo sapiens with 6 samples.

Results

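The sites described here are stretches of mRNA listed by HITS-CLIP of AEG-1. The PAR-CLIP library of the same protein did not cover them at any base. They were chosen from the HITS-CLIP AEG1 site lists as sites wider than 25 nt that overlap no PAR-CLIP AEG1 site on the same mRNA by even 1 nt, and they are called uncovered sites below. Of 11199 HITS-CLIP AEG1 sites wider than 25 nt, 698 were uncovered, 377 of 5944 in replicate 1 and 321 of 5255 in replicate 2. Of the 698, 594 lay on mRNAs with other PAR-CLIP sites and 104 lay on mRNAs with no PAR-CLIP site at all. The choice itself used the PAR-CLIP overlap, so the number and the distance to PAR-CLIP sites are descriptions and carry no test.

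AEG-1, encoded by MTDH, sits in the membrane of the endoplasmic reticulum (ER) and has been studied for its role in liver cancer. Secreted and membrane proteins are made by ribosomes attached to the ER, so their mRNAs are translated close to it. In CLIP, light bonds RNA to the protein that touches it, an antibody pulls the protein down, and the RNA fragments that come with it are read. HITS-CLIP relies on short-wave UV and natural bases, whereas PAR-CLIP commonly uses longer-wave UV and a light-sensitive nucleoside fed to the cells; no such agent appears in the labels.

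All 6 libraries came from AEG-1-14, a line derived from HepG3 hepatoblastoma cells; it stably expresses AEG1 carrying a C-terminal HA tag, and every library was precipitated with an anti-HA antibody. The groups were HITS-CLIP AEG1 (UV at 254 nm, 2 libraries), PAR-CLIP AEG1 (UV at 365 nm, 1 library), HITS-CLIP negative control (no UV, 2 libraries) and PAR-CLIP negative control (no UV, 1 library). All are thus 1 line with a tagged, added copy of the protein, and no library from cells without the tag was analysed here. The labels do not state whether the 2 HITS-CLIP AEG1 libraries are independent cultures, and the spread between them may therefore be technical only. Of 20 hepatocyte and hepatoblastoma marker genes, 17 and 15 had a site in the HITS-CLIP replicates and 19 in PAR-CLIP, with DLK1 absent from all 3, while of 22 markers of other cell types 3, 2 and 5 had one.

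The lists held 6378 and 5651 sites for HITS-CLIP AEG1 and 60085 for PAR-CLIP AEG1, against 60, 90 and 121 in the controls. Each site has a position and a log2 score; reads are not counted in the files, and sequencing depth is unknown. Every share below carries an exact Clopper-Pearson 95% interval where one is printed, which covers counting error only. Sites of 1 library are not replicates of a condition, and 2 libraries per group cannot pass a permutation test, so comparisons of uncovered with covered sites are given as values in both replicates and were not tested.

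Uncovered sites made up the same small share of both HITS-CLIP replicates. The share was 6.34% (5.74 to 6.99) in replicate 1 and 6.11% (5.48 to 6.79) in replicate 2, or 349 ± 39.6 sites (SD, n = 2). They were spread thinly, over 312 mRNAs in replicate 1 and 277 in replicate 2, with 138 mRNAs in common and 451 in all. Sites on mRNAs with no PAR-CLIP site numbered 55 and 49, on 49 and 45 mRNAs, of which 28 were the same.

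The unirradiated HITS-CLIP controls held too few sites wider than 25 nt to tell their uncovered share from the 6.34% and 6.11% of HITS-CLIP AEG1. The first HITS-CLIP control had 0 of 21 sites wider than 25 nt without PAR-CLIP overlap, which allows a share of up to 16.1%, and the PAR-CLIP control had 0 of 117 (up to 3.1%). The second HITS-CLIP control had 2 of 29 (6.9%, 0.846 to 22.8), a 26-nt site on CDK6, a cell cycle kinase, and a 28-nt site on RELN, the secreted protein reelin. Both lay inside uncovered AEG1 sites. On CDK6 the AEG1 sites ran over nt 257 to 288 (score 10.29) and nt 256 to 288 (10.37), with the control site at 8.12, and on RELN over nt 127 to 159 (7.46) and nt 128 to 159 (7.11), with the control site at 3.57. In all, 5 of the 377 and 4 of the 321 uncovered sites overlapped a control site of any width (1.33% and 1.25%), against 1.83% and 2.02% of all sites wider than 25 nt.

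The other uncovered sites met in a control lay on ATP2B2, a plasma membrane calcium pump, KLHL7, NAT8L and SPN. The ATP2B2 sites scored 9.41 and 10.15 and the 2 HITS-CLIP control sites there 9.41 and 7.74. On ATP2B2 in replicate 1 and on KLHL7 in replicate 2 (6.96 in both), the control site therefore reached the score of the AEG1 site. On NAT8L (12.51 against 10.84) and SPN (12.01 against 10.93) the AEG1 site was higher.

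Few sites lay directly at the limits of the definition, but the number of uncovered sites depended on the width limit. Sites of 26 to 30 nt made up 86 and 61 of them, and with no width minimum they numbered 623 and 542. Uncovered sites of exactly 26 nt numbered 22 and 9, and sites of 25 nt without overlap, just outside, numbered 15 and 11. A PAR-CLIP site began or ended directly beside the uncovered site in 4 and 3 cases, as on CLDN4, ERBB3, LIPC and NUCB2, and another 16 and 13 lay 1 to 5 nt away. On the other side of that limit, 8 and 3 covered sites overlapped PAR-CLIP by 5 nt or less, among them sites on MFAP3 and SRRM2 with an overlap of 1 nt.

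Uncovered sites were narrow and lay near the beginning of the mRNA more often than covered sites. Of the uncovered sites, 28.9% (24.4 to 33.8) in replicate 1 and 29% (24.1 to 34.3) in replicate 2 started within the first 200 nt of the transcript, against 5.12% and 4.99% of covered sites and 6.63% and 6.45% of all sites wider than 25 nt. Seen from the other side, 37.8% of replicate 1 sites and 38.1% of replicate 2 sites that started at nt 1 to 100 were uncovered, 18.4% and 18.5% of those after nt 100 and up to nt 200, and 3.64% and 3.1% of those after nt 500 and up to nt 1000. The median width was 39 and 40 nt against 55 nt for covered sites in both replicates. Among sites of 26 to 30 nt, 22.5% and 23.1% were uncovered, and among those wider than 75 nt, 1.17% and 1.04%.

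Among sites of 26 to 50 nt, 33.1% and 33.5% of uncovered and 4.28% and 3.9% of covered sites started in the first 200 nt. PAR-CLIP itself was sparse there. Over the 385 mRNAs that held uncovered and PAR-CLIP sites, PAR-CLIP covered 9.65% of the first 200 nt and 29.4% of the rest, measured to the last base of any site on the mRNA. Over the 1388 mRNAs whose HITS-CLIP sites were all covered, the values were 30.5% and 58.3%. The part that site width and this sparse cover play in the position of uncovered sites was not tested.

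**Figure D1:**
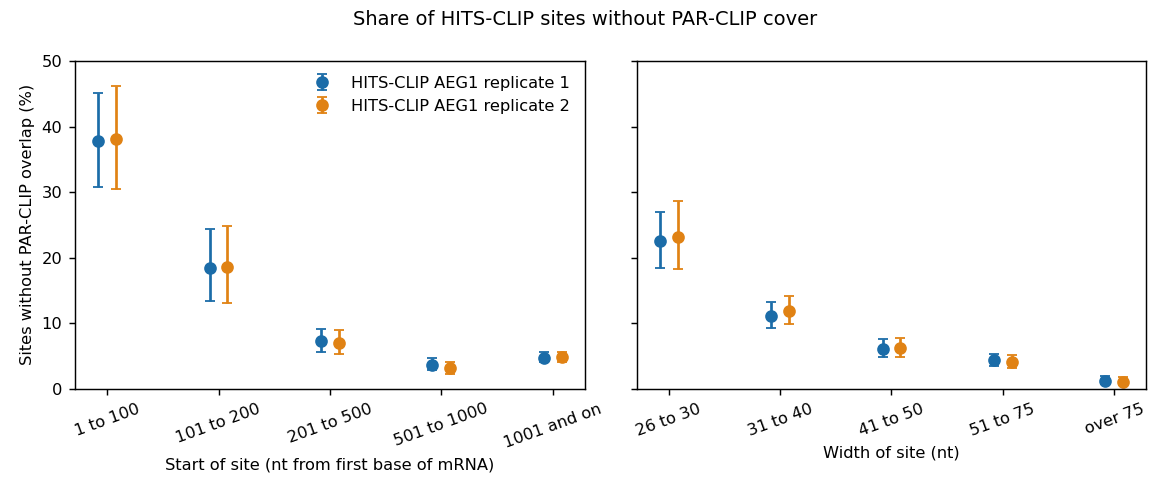
The points give the percentage of HITS-CLIP AEG1 sites wider than 25 nt without PAR-CLIP overlap, by the start of the site along the mRNA (left) and by its width (right), with exact 95% binomial intervals. The share is 37.8% and 38.1% for sites that start at nt 1 to 100 and 4.75% and 4.78% beyond nt 1000, and 22.5% and 23.1% at 26 to 30 nt against 1.17% and 1.04% above 75 nt.

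Relative to the PAR-CLIP sites of the same mRNA, 131 and 102 uncovered sites lay before the first one, 156 and 147 between PAR-CLIP sites, and 35 and 23 after the last. The nearest PAR-CLIP site was a median of 117 nt away in replicate 1 and 100 nt in replicate 2, within 50 nt for 34.5% and 34.6%, and more than 500 nt away for 16.1% and 16.5%. The longest gaps, read off after the values were seen, were 5813 nt on AGO4, an Argonaute protein of the small RNA pathway, and 4772 nt on TUT4, a terminal uridylyltransferase, both with the uncovered site near the beginning of the mRNA (ending at nt 141 and nt 99) and neither met again in the other replicate.

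Uncovered sites were found again by the other HITS-CLIP replicate less often than covered sites in both replicates, a difference that was not tested. A site of the other replicate overlapped 160 of 377 (42.4%, 37.4 to 47.6) in replicate 1 and 160 of 321 (49.8%, 44.2 to 55.4) in replicate 2, against 64.1% and 72.2% of all sites wider than 25 nt and 65.6% and 73.7% of covered sites. Within 26 to 50 nt the shares were 44.2% and 51.9% for uncovered and 54.4% and 64.9% for covered sites. On mRNAs that held both kinds of site, 39.2% and 44.7% of uncovered sites were repeated against 68.7% and 70.9% of covered sites. Sites on mRNAs with no PAR-CLIP site were repeated in 58.2% (44.1 to 71.3) and 67.3% (52.5 to 80.1).

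Where an uncovered site did return, its ends often returned with it. There were 138 such pairs, uncovered in both replicates, on 120 genes, and in 81 of them (58.7%) both ends lay within 5 nt in the replicates, against 14.4% of 3607 pairs of covered sites. For pairs of 26 to 50 nt in both replicates the shares were 79.3% of 92 and 40.4% of 634. By place on the mRNA, both ends lay within 5 nt in 82.1% of the 28 pairs on mRNAs with no PAR-CLIP site, 67.3% of the 55 before the first PAR-CLIP site, and 35.4% of the 48 between PAR-CLIP sites. Both ends were identical in 17 pairs.

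**Figure D2:**
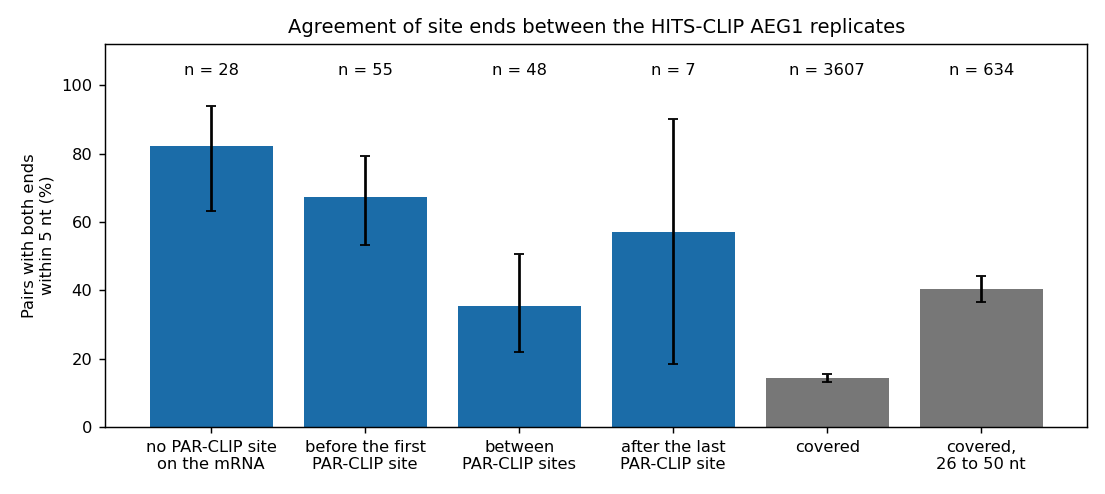
Bars give the percentage of site pairs found in both HITS-CLIP AEG1 replicates whose start and end each lie within 5 nt, with exact 95% binomial intervals and the number of pairs above each bar. Blue bars are uncovered pairs by their place relative to PAR-CLIP sites and grey bars are covered pairs, where 14.4% of all and 40.4% of those of 26 to 50 nt met the limit.

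Here the score of a site was read only against other sites of the same mRNA, because the scores of different mRNAs are not on a common scale. On the 94 and 88 mRNAs with both kinds of site, the median score of uncovered sites was lower than that of covered sites on 69.1% and 70.5%, with a median difference, uncovered minus covered, of -0.81 (quartiles -1.41 and 0.09) and -0.63 (-1.41 and 0.02). Set against the nearest PAR-CLIP site, uncovered sites had a median difference of 0.00 in both replicates and scored at or above it (within 0.1) in 64.6% and 65.4%. For covered sites the median difference was -2.32 and -2.36, and they reached the PAR-CLIP score in 16.2% and 15.9%. HITS-CLIP and PAR-CLIP scores come from different libraries whose depth and normalization are unknown. A difference of 0.00 therefore does not mean equal signal. Between replicates, the 138 repeated pairs differed by a median of 0.50 in score, and 108 of them by at most 1. Covered pairs differed by a median of 0.74, and 2292 of 3607 by at most 1. For pairs of 26 to 50 nt in both replicates the medians were 0.34 for uncovered and 0.71 for covered. The counts used rounded scores for uncovered and unrounded scores for covered pairs, so they are not fully alike. These differences were not tested.

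**Figure D3:**
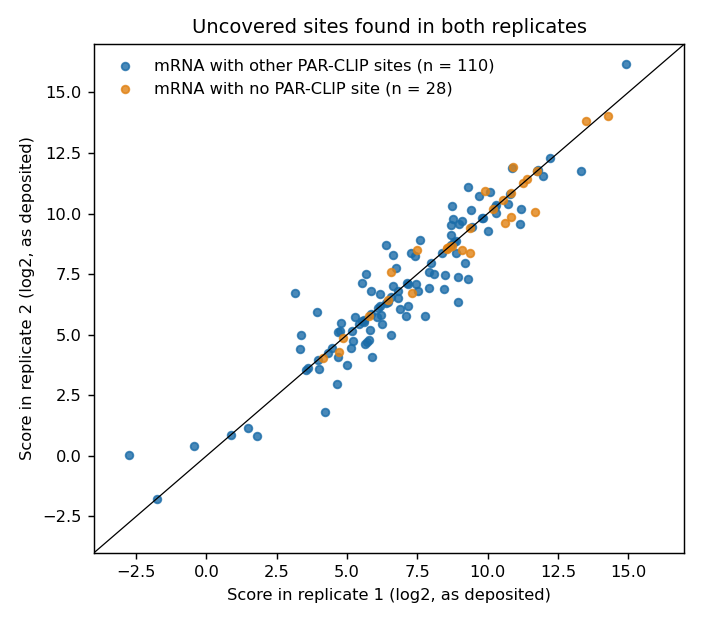
Each point is 1 uncovered site found in both HITS-CLIP AEG1 replicates, with its deposited log2 score in replicate 1 on the horizontal and in replicate 2 on the vertical axis; the line marks equal scores. The distance from the line is what can be read, since position along it includes a constant of each mRNA. Of the 138 pairs, 108 lie within 1 unit of the line. For covered pairs, not drawn, the count was 2292 of 3607, taken on unrounded scores.

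The first group of members lay in gaps between PAR-CLIP sites, or beyond the last one, on long mRNAs of secreted and membrane proteins. LAMA5, the laminin alpha-5 chain of basement membranes, led it. Of its 20 and 19 HITS-CLIP sites wider than 25 nt, 8 and 9 were uncovered, and 6 of these were found in both replicates. Its 39 PAR-CLIP sites covered 25.2% of the mRNA up to nt 11282. The repeated sites lay between nt 1694 and 10576, all between PAR-CLIP sites; at nt 8756 to 8804 (replicate 1) and 8754 to 8811 (replicate 2) the scores were 7.29 and 8.37, with a PAR-CLIP site of score 6.37 starting at nt 8834. At nt 10272 to 10314 and 10278 to 10314 they were 6.37 and 8.69, more than 300 nt from the nearest PAR-CLIP site (328 and 334 nt).

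LRP1, a large endocytic receptor of hepatocytes, had 9 of 28 and 4 of 22 sites uncovered among 56 PAR-CLIP sites. Only 2 of them were repeated. The first ran over nt 11254 to 11294 and 11232 to 11284 and scored 6.05 and 5.73, and the other over nt 11811 to 11861 and 11842 to 11876 and scored 5.23 and 4.73. In replicate 1, 2 further sites lay past the last PAR-CLIP base at nt 13973, at nt 14000 to 14125, the widest uncovered site of all at 126 nt, and at nt 14516 to 14571.

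HSPG2, or perlecan, a proteoglycan of the basement membrane, is named here after its values were seen. It had 7 of 26 and 3 of 16 sites uncovered among 42 PAR-CLIP sites, and 0 of these were repeated. COL18A1, the collagen from which endostatin is cut, had 4 of 13 and 2 of 13 sites uncovered, with 1 repeated at nt 1831 to 1904 and 1840 to 1906 (scores 7.42 and 8.27).

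APOA1, the main protein of HDL, had 4 repeated uncovered sites. Its only PAR-CLIP site covered nt 87 to 282 with a score of -0.77. Of 6 HITS-CLIP sites in each replicate, 4 lay after it and all 4 were repeated: nt 340 to 425 and 328 to 412 (scores 1.47 and 1.13), nt 427 to 466 and 427 to 461 (-2.77 and 0.03), nt 507 to 557 and 505 to 557 (-1.77 in both), and nt 766 to 813 and 735 to 813 (-0.45 and 0.40). The site nearest to the PAR-CLIP site was the highest in both replicates, and all but the second differed by less than 1 between replicates. Sites on F10, coagulation factor X, also ran past the last PAR-CLIP base (nt 905), with 1 repeated at nt 1056 to 1154 and 1063 to 1150 (scores 4.77 and 5.47), while 3 more uncovered sites of replicate 1 had no uncovered partner in replicate 2.

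**Figure D4:**
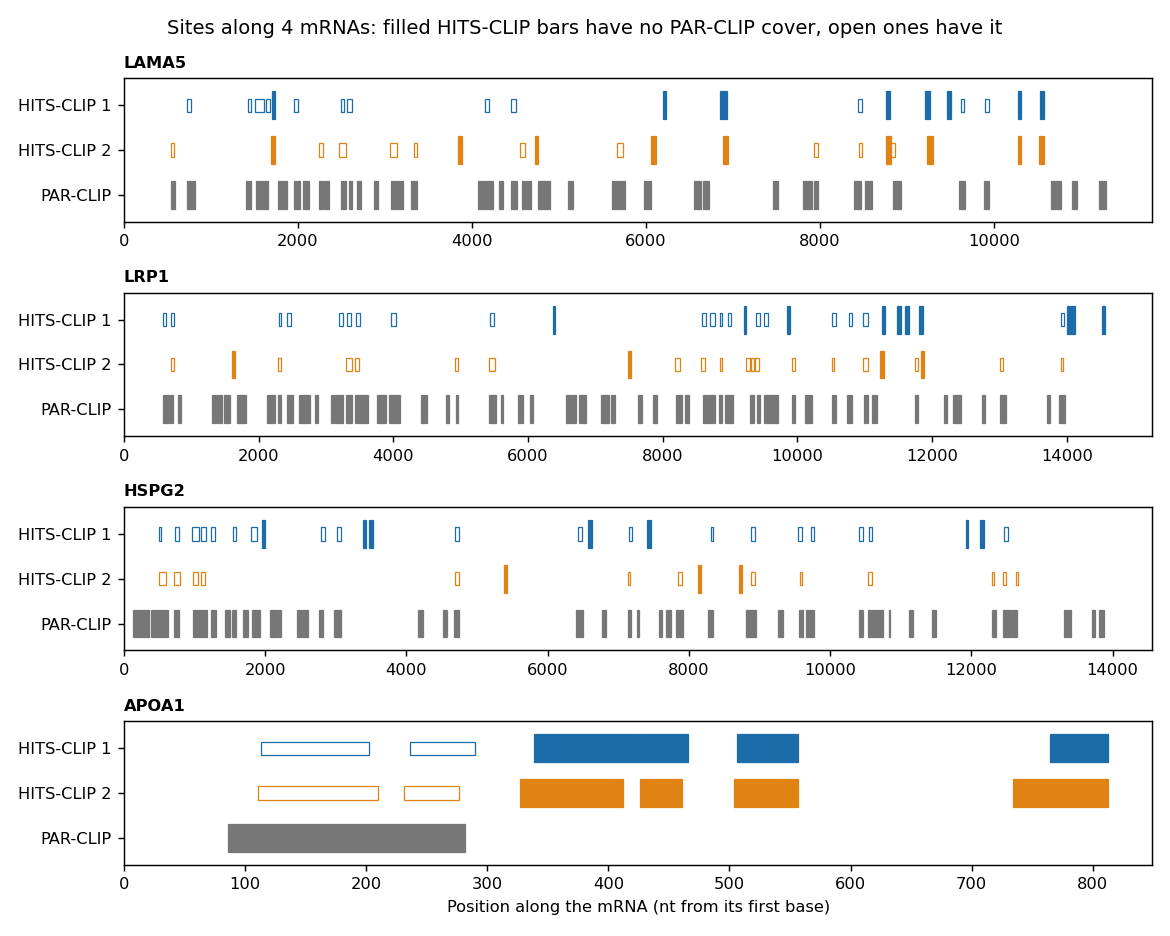
Sites along the mRNAs of LAMA5, LRP1, HSPG2 and APOA1, by nt from the first base; HITS-CLIP sites wider than 25 nt are filled where no PAR-CLIP site overlaps and open where one does, and grey bars are all PAR-CLIP sites. Filled bars stand above gaps of the PAR-CLIP row, at like positions in the replicates 6 times on LAMA5 and 4 times on APOA1, and at none on HSPG2.

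Other members of this kind had fewer sites. On C6, a component of the complement pore, 3 of 5 and 2 of 3 sites were uncovered and 2 repeated, at nt 706 to 743 and 739 to 765 and at nt 2296 to 2370 and 2318 to 2356, with all scores between 11.74 and 13.33. MEP1A, a secreted and membrane metalloprotease subunit, had 2 repeated sites, with scores of 10.03 and 9.29 at nt 539 to 585 and 533 to 581. The widest repeated site lay on MMP14, a membrane-bound matrix protease, at nt 1815 to 1907 and 1792 to 1896 (93 and 105 nt; 9.29 and 11.09). On NOTCH1, the receptor, PAR-CLIP had only 4 sites, and the repeated site at nt 4652 to 4701 and 4623 to 4690 (14.92 and 16.17) was 1343 nt from the nearest. Single repeated sites were found on MSLN (mesothelin), SLC12A2 (a sodium, potassium and chloride cotransporter), PRKCSH (the glucosidase II beta subunit), and the lysosomal enzymes GUSB and GLB1. CAPNS1, the small calpain subunit of the cytosol, had both of its sites uncovered and repeated, at nt 176 to 206 and 177 to 206 and at nt 253 to 303 and 261 to 312.

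Some of these mRNAs have near-identical copies, and their values are uncertain because a fragment may belong to any copy. On the complement genes C4A and C4B, 1 and 4 and 5 and 5 sites were uncovered. In replicate 2 the sites at nt 166 to 213 and 4855 to 4901 stood in both lists with the same coordinates, so the 2 genes do not give independent sites. HLA-B, an MHC class I heavy chain, had 4 of 10 and 3 of 9 uncovered, 3 repeated, and HLA-C 1 of 7 and 2 of 9. Of HLA-G, a related gene, all 4 and 2 sites were uncovered because PAR-CLIP listed no site on it.

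The second group lay before the first PAR-CLIP site, near the beginning of the mRNA. These 131 and 102 sites had median widths of 34 and 36 nt and median starts at nt 133 and 120, and 73.3% and 74.5% were the only HITS-CLIP site of their mRNA, against 26.9% and 30.6% of those between PAR-CLIP sites and 9.04% and 8.9% of covered sites. Of the 55 repeated pairs, 36 started within the first 200 nt. Of 55 genes, 5 belonged to the lists of endomembrane proteins and 4 to those of cytosolic and nuclear proteins, or 9.09% and 7.27%. Of the 37 genes with repeated pairs between PAR-CLIP sites, 9 and 1 did (24.3% and 2.7%), and of all 1104 genes with sites wider than 25 nt in both replicates, 216 and 91 (19.6% and 8.24%). These shares were not compared by a test.

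The 4 cytosolic and nuclear genes with a pair before the first PAR-CLIP site were KMT2A, a histone methyltransferase, CHD7, a chromatin remodeler, SUZ12, a subunit of Polycomb complex PRC2, and ARID1B, a subunit of the BAF remodeling complex. They were the 4 of 45 listed chromatin genes with a HITS-CLIP site wider than 25 nt in both replicates, and each had 1 such site per replicate, uncovered both times. KMT2A had its site at nt 198 to 227 and 196 to 227 (7.17 and 7.09), more than 1000 nt before the first of 38 PAR-CLIP sites (1133 nt). CHD7 had nt 2 to 46 and 1 to 48 (7.77 and 5.77), before 16 PAR-CLIP sites that began at nt 364. SUZ12 had nt 291 to 335 and 291 to 326 (4.31 and 4.23), and ARID1B nt 1368 to 1394 and 1366 to 1393 (7.17 and 6.17), 758 nt before PAR-CLIP. None of these 4 mRNAs had a site in a control. SUZ12 is named as part of the count, after its values were seen.

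**Figure D5:**
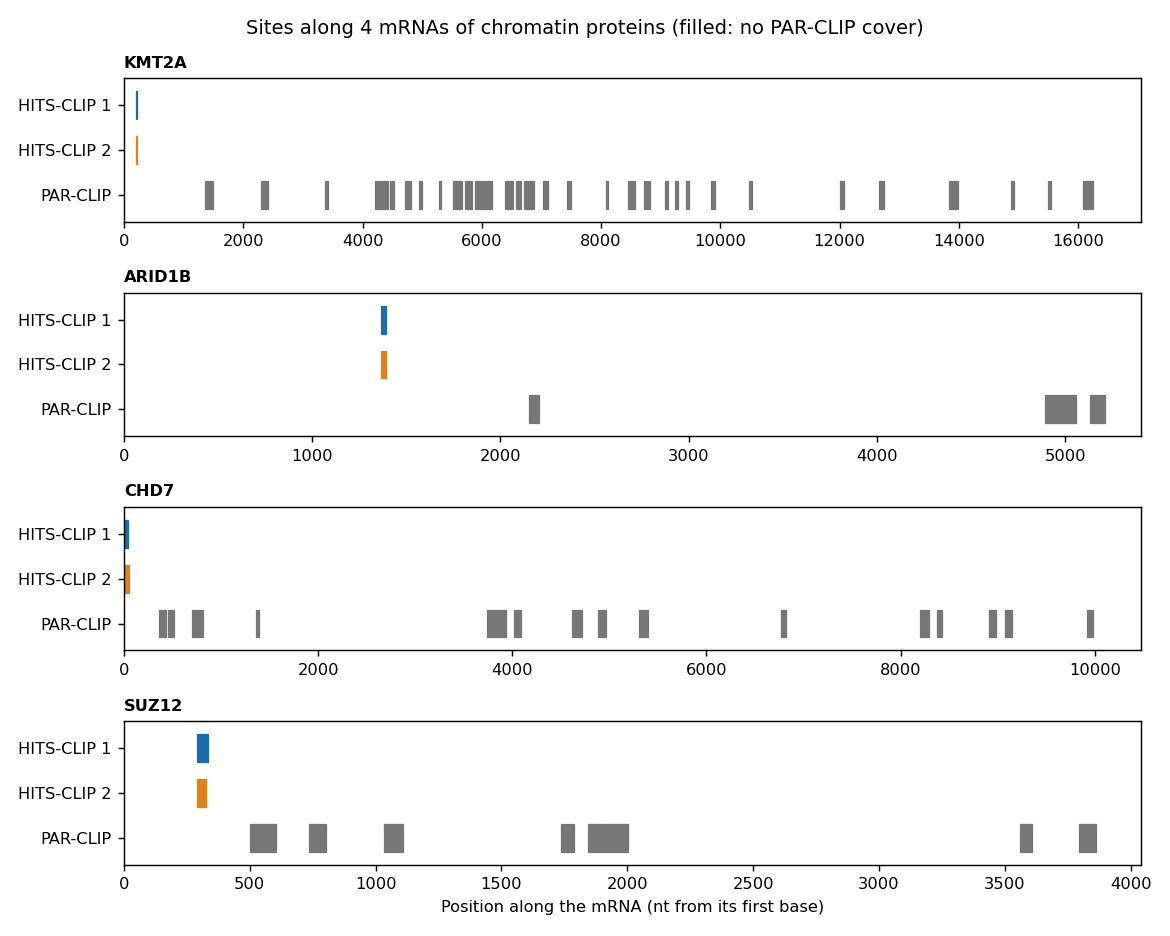
Sites along the mRNAs of the chromatin proteins KMT2A, ARID1B, CHD7 and SUZ12, by nt from the first base, drawn as in the maps of LAMA5, LRP1, HSPG2 and APOA1. Each mRNA has 1 uncovered HITS-CLIP site per replicate, at overlapping positions, to the left of every PAR-CLIP site.

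The sharpest of these sites were identical in the replicates. On PGP, a phosphatase of glycolytic by-products, both replicates gave nt 19 to 45 and a score of 11.79, with the only PAR-CLIP site starting at nt 1830. Named after their values were seen, ST3GAL2, a Golgi sialyltransferase, gave nt 34 to 68 at 9.44 and PTMS, or parathymosin, nt 133 to 158 at 5.44, each in both replicates. SLC40A1, the iron exporter ferroportin, also named after its values were seen, gave nt 15 to 42 at 5.59 in both, before 10 PAR-CLIP sites. On TFRC, the transferrin receptor, likewise named after its values were seen, the sites at nt 1 to 44 and 9 to 38 scored 4.23 and 1.83, so the score differed more than on SLC40A1. TMED2, a cargo receptor of early secretory vesicles, had nt 33 to 69 and 31 to 69 (1.81 and 0.81), only 5 and 5 nt before PAR-CLIP, and CERS2, a ceramide synthase of the ER, nt 189 to 227 and 199 to 249 (5.30 and 5.72). FRA10AC1 (nt 21 to 71 and 22 to 53) and TMEM185A (nt 131 to 183 and 131 to 179) were also named after their values were seen. Both are genes at folate-sensitive fragile sites, where a CGG repeat lies at the beginning of the gene. The bases under the sites were not read here, and genes with such repeats were not counted among the others. A link of the sites to the repeat was not tested.

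A few sites lay far down the mRNA instead. On LMLN, a metallopeptidase, nt 2926 to 2961 and 2926 to 2965 (10.87 and 11.87) lay 982 nt before the first of 2 PAR-CLIP sites. On IRGQ, a GTPase-like protein, nt 1399 to 1446 and 1412 to 1445 (11.97 and 11.55) lay in a gap among 26.

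The third group, on mRNAs that PAR-CLIP did not list, held 66 genes. Its sites were narrow, with a median of 32 nt in both replicates, and 78.2% and 81.6% were the only HITS-CLIP site of their mRNA. Their starts had medians at nt 339 and 340, with 38.2% and 42.9% in the first 200 nt. Of those early sites, only 21 in each replicate, 81% were repeated. Further along, 44.1% of 34 and 57.1% of 28 sites were. Covered sites in the first 200 nt were repeated in 62.1% and 72%. These shares rest on few sites and were not tested. The lists of endomembrane and of cytosolic and nuclear proteins held 0 of the 66 genes. They held 235 and 146 of the 1838 genes with a HITS-CLIP site wider than 25 nt in either replicate (12.8% and 7.94%). This difference was not tested. The lists hold only 293 and 298 genes and leave out secreted proteins of this group, such as GDF11, GPLD1 and A1BG. The count of 0 therefore does not describe the protein classes of the group. Of 28 pairs repeated on 25 genes, 27 differed by at most 1 in score, with a median difference of 0.08. For covered pairs the count was 2292 of 3607, taken on unrounded scores, and the median 0.74.

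Repeated sites of this group are given by gene, and their scores cannot be compared between genes. GPRIN1, a regulator of neurite outgrowth, had nt 57 to 87 in both replicates (13.49 and 13.82). BRSK2, a brain kinase, had nt 102 to 133 and 93 to 132 (11.75 in both), EFNA3, an ephrin ligand, nt 39 to 68 and 39 to 65 (11.26 in both), and KCNMB4, a subunit of calcium-activated potassium channels, nt 339 to 370 and 340 to 370 (11.67 and 10.08). Of the TGF-beta family ligands, GDF11 had nt 121 to 166 in both (10.19 in both) and GDF7 nt 695 to 729 and 695 to 728 (9.92 and 10.92). SH3PXD2B, an adaptor of podosomes, had nt 14 to 42 in both (10.61 and 9.61), and PABIR1, a PP2A regulator, nt 179 to 209 in both (9.39 in both). These sites sat at the same bases in both replicates, to within a few nt except for the start on BRSK2. ZNF771, a zinc finger protein, had nt 160 to 185 in both (11.41 in both), C11orf68 nt 31 to 68 and 31 to 67 (8.63 in both), and SKIDA1 nt 3161 to 3210 and 3159 to 3210 (14.29 and 14.03).

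FMR1, the fragile X gene, has a CGG repeat tract near the beginning of its mRNA. Among mRNAs with no PAR-CLIP site, it carried the widest repeated site that starts in the first 200 nt. The site lay at nt 99 to 159 and 98 to 164 (61 and 67 nt, scores 4.72 and 4.30) and was its only site in each replicate. The bases under it were not read, and a link to the repeat was not tested. CPEB2, which binds polyadenylation elements, had 2 sites, at nt 1049 to 1080 and 1050 to 1080 and at nt 1436 to 1461 in both, all scoring 10.84 except for 9.84 at the latter in replicate 2. PRAP1 had 2 sites, of which the first was wide and shifted, at nt 251 to 303 and 219 to 303 (10.92 and 11.92). GPLD1, a plasma phospholipase, had nt 1793 to 1820 and 1803 to 1830 (10.56 in both), and A1BG, a plasma glycoprotein named after its values were seen, had 2 uncovered sites in each replicate with 0 in common.

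The share of genes with uncovered sites was read by protein class. Of 1104 genes with HITS-CLIP sites wider than 25 nt in both replicates, 138 (12.5%) had an uncovered site in both. Among listed endomembrane genes the count was 20 of 216 (9.26%, 5.75 to 13.9) and among listed cytosolic and nuclear genes 6 of 91 (6.59%, 2.46 to 13.8). With no width minimum these shares were 9.17% and 8% against 20.5% of all genes, and with HITS-CLIP sites above the median score 5.16% (8 of 155) and 10% (1 of 10) against 11.6%. With PAR-CLIP sites above the median score they were 45.4% and 70.3% against 39.9%, so the order of the lists and their place relative to all genes turned with the setting. These score cuts used medians over all mRNAs, whose scores are not on a common scale, so they can drop every site of an mRNA. Under the PAR-CLIP cut, 50.2% of uncovered sites lay on mRNAs left with no PAR-CLIP site, against 14.9% in the main setting. Secreted liver proteins had 5 of 34 (APOA1, C4A, F10, F2 and HP), matrix and adhesion proteins 4 of 26 (LAMA5, HSPG2, COL18A1 and ITGB4) and plasma membrane receptors and transporters 5 of 33 (LRP1, NOTCH1, SLC12A2, TFRC and VLDLR), or 14.7%, 15.4% and 15.2%. The ER translocation, folding and glycosylation list had 2 of 40 (CKAP4 and PRKCSH), Golgi and vesicle membrane proteins 1 of 33 (TMED2), lysosomal proteins 2 of 30 (GUSB and GLB1) and ER lipid and sterol proteins 1 of 20 (CERS2). The differences between these lists were not tested.

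Cytosolic ribosomal proteins, with 27 genes carrying HITS-CLIP sites, had 0 with an uncovered site in both replicates, as had translation factors and tRNA synthetases (0 of 10), the proteasome and cytosolic chaperones (0 of 9), glycolysis and cytosolic metabolism (0 of 10) and nuclear-encoded mitochondrial proteins (0 of 8). With so few genes these counts allow shares of up to 12.8%, 30.8%, 33.6%, 30.8% and 36.9%. Chromatin factors had 4 of 4 (39.8 to 100), the only 4 of 45 listed genes with such sites in both replicates. Genes with near-identical copies had 6 of 26 (23.1%, 8.97 to 43.6).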

How the data were processed

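For every library the deposited file gives the RefSeq mRNA, gene symbol, start, end and score of each site. The values of the score deposited by the authors fit a log2 scale with a constant of its own for each mRNA; how it was normalized is not stated. The lowest PAR-CLIP score of an mRNA ran from 2.30 to 10.13 (5th to 95th percentile over mRNAs), so scores were compared within an mRNA. The score thresholds among the alternatives and the naming rule are exceptions, as they ranked scores over all mRNAs. Bowtie was used, per the submitters' processing notes, and the site caller and its threshold are not stated.

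Starts were read as 0-based and are printed 1-based along the transcript. Overlap was at least 1 nt. Symbols were updated from a RefSeq table (GRCh38.p14): its accessions named 8146 of 8204 transcripts, its symbols 30 more and its synonyms 21. Site sequences were not analysed here. The overlap functions were tested on simulated sites. Python 3.11.15, pandas 2.3.3 and scipy 1.17.1 were used.

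The members and the 18 gene lists were chosen with earlier results of these data known. The naming rule took the 15 genes with most repeated uncovered sites on mRNAs with and without PAR-CLIP sites, the 8 highest-scoring and 8 widest repeated sites, the 3 leading genes of each list and the 5 sites nearest each limit; some of these are left out for length, and a few genes and list counts are not reported here. Genes in control overlaps and in list counts are named besides, after their values were seen. Alternatives covered overlap, width, score thresholds, controls, near-identical copies and single replicates.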

Additional observations from a re-analysis of the deposited data

Results flagged for a closer look

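HITS-CLIP AEG1 sites of 25 nt or less, which were outside the definition used, also occurred without PAR-CLIP overlap, 246 times in replicate 1 and 221 times in replicate 2. The same kind of site numbered 16 and 28 in the HITS-CLIP negative controls and 1 in the PAR-CLIP negative control. They are listed because their number in the AEG1 libraries was above that of the controls. The share ran the other way between the HITS-CLIP libraries: such sites made up 3.86% and 3.91% of all 6378 and 5651 AEG1 sites and 26.7% (16.1 to 39.7) and 31.1% (21.8 to 41.7) of the 60 and 90 control sites, with exact 95% intervals, and 0.826% of the 121 PAR-CLIP control sites.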

How the results depend on the processing

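No paired analysis was possible because the results come from no test. Over the replicates together, 6.23% of sites were uncovered, 14.9% of these lay on mRNAs with no PAR-CLIP site, 46.1% were repeated, 28.9% started in the first 200 nt, the median width was 39.5 nt and the within-mRNA score difference -0.72. Uncovered sites were repeated less often and had closer ends than covered sites under all 11 alternatives run, and were narrower and more often in the first 200 nt under all 10 that could show it. Of the results listed here only the score difference could change sign, and it stayed negative under every alternative that gave it. The causes of the moves below were not tested.

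The largest move came from using only PAR-CLIP sites above the median score, with 1807 and 1597 uncovered sites (30.4%), 50.2% of them on mRNAs with no PAR-CLIP site, 63% repeated, a median of 51.5 nt, 13.4% in the first 200 nt, a score difference of -0.48, both ends within 5 nt in 22% of pairs, and 39.9% of genes with uncovered sites in both replicates. Sites over 50 nt gave 99 and 82 (2.89%), and for the same measures 7.3%, 40.6%, 60 nt, 16.5%, 23.8% with close ends and 3.55% of genes. With no width minimum there were 623 and 542 (9.68%), with 24.5% on mRNAs with no PAR-CLIP site, 29.2 nt, 28.1% early, 72.4% with close ends and 20.5% of genes. HITS-CLIP sites above the median score gave 234 and 204 (7.99%), with 20.1%, 27.8% early and -0.29 in score. Each score cut used the median of its library over all mRNAs, whose scores are not on a common scale. Such a cut can drop every site of an mRNA.

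Asking for cover of at least 50% of the site gave 6.91% uncovered, 13.5% on mRNAs with no PAR-CLIP site, 40.5 nt and 27.6% early. Counting a PAR-CLIP site within 50 nt as cover gave 4.4%, 21.1%, 37.5 nt, 34.3% early and 9.6% of genes. The early share was 29% without sites seen in a control and 29.4%, with a median of 38.8 nt, without near-identical copies. At least 2 uncovered sites in each replicate were found in 1.45% of genes, and single replicates gave 19.9% and 20.1% of genes.

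Chosen after seeing the data, touching sites as cover gave 29.1% early. Sites of 26 to 50 nt gave 10.4% uncovered, 17.6%, 33.3% early, -0.28 in score and 79.3% with close ends. Sites starting beyond the first 200 nt gave 4.73%, 12.5%, 40.2% repeated, 41.5 nt, 47% with close ends and 7.95% of genes. For the endomembrane and the cytosolic and nuclear lists, sites of 26 to 50 nt gave 7.34% and 9.62% of genes against 13.9% of all genes. Without read counts, the precision that depth allows is unknown.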
